A study of Homo sapiens with 18 samples.

Results

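The mitochondrial ribosomal protein genes, symbols MRPL and MRPS followed by a number, are described here across an RNA-seq time course of doxycycline-driven G0S2 expression in 2 human breast cancer cell lines. The members were taken by symbol alone, with no expression value used. The rule found 77 genes among the 16410 listed in either line, 76 of them listed in T47D and all 77 in MDA-MB-231. MRPL23 was analysed in MDA-MB-231 only, and MRPS24 was not analysed here.

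T47D is an oestrogen receptor positive line and MDA-MB-231 an oestrogen receptor negative line. Each line had 3 libraries after 3 days of induced G0S2, 3 libraries after 15 days and 3 control libraries, 18 in all. G0S2 encodes a protein that binds and blocks the lipase ATGL. The labels give a doxycycline dose of 0.5 ug/ml and a treatment of 15 days in the same words for every sample, controls included. No doxycycline-treated cells without the G0S2 insert were analysed here, so effects of G0S2, doxycycline and the vector cannot be told apart. The series' design note speaks of other groups, parental and Aza resistant lines as biological triplicates, and the groups here follow the labels of the samples. Those labels do not say whether the libraries of a group were grown as separate cultures, and the spread behind each p-value is that between libraries, which may be technical.

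Mitochondria translate the few proteins encoded by their own DNA on a dedicated ribosome, the mitoribosome. Its RNAs come from mitochondrial DNA, whereas every protein of its small (MRPS) and large (MRPL) subunit is encoded in the nucleus and imported. Some of these proteins have counterparts in the bacterial ribosome and others exist only in mitochondria. Doxycycline, a tetracycline, binds the small subunit of bacterial ribosomes and is known to inhibit mitochondrial translation as well, and members of the family are therefore read here in cells exposed to it. By role, the 77 members comprised 15 small subunit proteins with bacterial homologues, 10 mitochondria-specific small subunit proteins, 29 large subunit proteins with bacterial homologues and 20 mitochondria-specific large subunit proteins. The other members were MRPS18A and MRPS30, which carry a small subunit name but sit in the large subunit, and MRPS36, which is now known as a component of the 2-oxoglutarate dehydrogenase complex.

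Promoter sequences were available for 68 members from RefSeq on GRCh38.p14, each running from 250 bases before to 50 bases after the RefSeq start of the gene. None was found for MRPL2, MRPL10, MRPL13, MRPL15, MRPL21, MRPL23, MRPL35, MRPS28 and MRPS36. These 300-base windows were searched on both strands for the letters CCGGAAG (bound by ETS family factors such as GABP), AAGATGG (YY1), GCATGCG (the core of the NRF1 motif), CCAAT (NF-Y) and GGGCGG (SP1). An ETS match was present in 29 of the 68 promoters, 42.6%, against 17.9% of 11964 promoters of genes listed in either line and 10.3% of all 35116 promoters. A YY1 match was present in 22 promoters, 32.4%, against 7.30% of listed genes and 5.84% of all promoters. Altogether 42 member promoters held an ETS or a YY1 match, 61.8% against 23.6% of listed genes. Both letters stood in 9 of them, with no base shared between the ETS and YY1 matches. The NRF1 core was found in 7 (10.3% against 6.09% of listed genes and 3.91% of all promoters). Matches to CCAAT (20 promoters, 29.4% against 36.5% of listed genes and 34.6% of all) and to GGGCGG (41 promoters, 60.3% against 67.8% of listed genes and 45% of all) were no more frequent than among listed genes. The median GC content was 60.3% in member promoters and 65% in those of listed genes. A match is a run of letters and does not show that a factor was bound.

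The following promoters are shown because the expression results turn on MRPS6, MRPS25 and MRPL49, while MRPL20 and MRPL51 were the first by symbol among the promoters with the most ETS and YY1 matches. Sequences are on the strand of the gene, 5′ to 3′, with every match to any of the 5 motifs in capitals. MRPS6 is at chr21:34073328-34073627 (plus strand, 9 SP1 matches, GC 82%), MRPS25 at chr3:15065266-15065565 (minus strand, 0 matches) and MRPL49 at chr11:65121933-65122232 (plus strand, 1 YY1 and 1 SP1 match). MRPL20 is at chr1:1407244-1407543 (minus strand, 2 ETS and 1 YY1 match) and MRPL51 at chr12:6493213-6493512 (minus strand, 2 ETS, 1 YY1 and 2 SP1 matches).
MRPS6: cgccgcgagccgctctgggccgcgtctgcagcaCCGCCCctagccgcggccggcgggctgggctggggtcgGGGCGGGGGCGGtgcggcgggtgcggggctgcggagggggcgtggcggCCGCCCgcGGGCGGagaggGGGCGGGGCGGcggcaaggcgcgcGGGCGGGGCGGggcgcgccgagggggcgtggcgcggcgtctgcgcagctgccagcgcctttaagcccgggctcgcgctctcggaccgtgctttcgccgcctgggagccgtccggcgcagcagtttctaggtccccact
MRPS25: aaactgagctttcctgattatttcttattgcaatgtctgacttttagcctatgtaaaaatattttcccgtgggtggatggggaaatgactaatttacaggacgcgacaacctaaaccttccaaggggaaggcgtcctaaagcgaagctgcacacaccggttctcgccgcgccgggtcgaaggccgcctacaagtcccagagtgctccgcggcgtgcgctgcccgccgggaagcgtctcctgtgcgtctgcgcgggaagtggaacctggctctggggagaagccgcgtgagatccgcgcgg
MRPL49: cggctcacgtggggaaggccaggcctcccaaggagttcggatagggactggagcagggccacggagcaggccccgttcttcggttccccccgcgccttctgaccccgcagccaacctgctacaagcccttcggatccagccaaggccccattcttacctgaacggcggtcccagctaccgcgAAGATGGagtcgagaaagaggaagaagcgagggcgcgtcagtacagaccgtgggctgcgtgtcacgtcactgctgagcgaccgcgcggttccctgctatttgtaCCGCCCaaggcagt
MRPL20: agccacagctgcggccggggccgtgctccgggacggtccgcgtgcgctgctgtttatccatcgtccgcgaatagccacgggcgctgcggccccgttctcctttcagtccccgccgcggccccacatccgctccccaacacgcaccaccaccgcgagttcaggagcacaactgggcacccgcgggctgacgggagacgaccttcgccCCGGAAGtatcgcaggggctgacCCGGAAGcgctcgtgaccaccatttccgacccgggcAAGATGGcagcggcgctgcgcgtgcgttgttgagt
MRPL51: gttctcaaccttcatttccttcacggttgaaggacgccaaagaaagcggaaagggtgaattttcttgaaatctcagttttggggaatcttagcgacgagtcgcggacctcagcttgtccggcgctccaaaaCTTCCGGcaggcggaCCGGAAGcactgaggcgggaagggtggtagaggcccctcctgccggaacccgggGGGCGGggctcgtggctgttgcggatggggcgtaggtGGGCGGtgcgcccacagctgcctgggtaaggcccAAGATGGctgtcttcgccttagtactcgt
The MRPS6 promoter was the most GC-rich of those shown and carried SP1 letters alone, whereas the MRPS25 promoter carried none of the letters searched.

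Library depth was 40.1 to 51.0 M reads in T47D and 37.0 to 52.4 M reads in MDA-MB-231. G0S2 itself separated the induced libraries from the controls. In CPM, the read count of a gene scaled to the size of its library, the T47D level was 0.343 to 0.966 in controls, 844 to 883 at day 3 and 736 to 993 at day 15. The MDA-MB-231 level was 25.1 to 25.6 CPM in controls, 1430 to 1506 at day 3 and 1103 to 1294 at day 15. Of 10 luminal genes fixed as T47D markers, all 10 were listed in T47D and 6 in MDA-MB-231, where ESR1, PGR, FOXA1 and TFF1 were not listed. Of 8 basal or mesenchymal genes fixed as MDA-MB-231 markers, all 8 were listed in MDA-MB-231 and 2 in T47D, so every marker was listed in the line of its label. A listed gene can still be scarce, as SPARC was in MDA-MB-231 (0.540 CPM) and TFF1 in T47D (2.80 CPM). The luminal KRT8, KRT18 and KRT19 had 346, 362 and 144 CPM in MDA-MB-231, against 2297, 1306 and 1985 CPM in T47D. T47D day 15 replicate 2 stood apart from its group, over all genes as well as in the members. There, 17 of 76 members deviated by more than 0.2 on the log2 scale from the mean of the group's other libraries. Of all genes, 31.4% did so. Replicates 3 and 1 of the group had 8 and 1 such members, beside 24.1% and 15.7% of all genes. Every other library had 0 to 2, beside 12.6 to 17.1% of all genes. Counts of calls and named calls at T47D day 15 are therefore given with and without it, except that marker counts are given with all libraries only.

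The summed transcript level of the family stayed within 2% of the control mean in every induced group. In T47D the members summed to 5674 ± 24.3 CPM in controls, 5642 ± 27.3 CPM at day 3 and 5613 ± 25.7 CPM at day 15 (SD, n = 3 each). In MDA-MB-231 the sums were 3974 ± 38.9 CPM in controls, 3904 ± 9.36 CPM at day 3 and 3984 ± 29.2 CPM at day 15. These sums correspond to 0.56 to 0.57% of reads in T47D and 0.39 to 0.40% in MDA-MB-231. The mean share of reads in T47D was 0.5632% in controls, 0.5648% at day 3 and 0.5634% at day 15, an order unlike that of the CPM sums. Against control the mean sum differed by -0.572% at day 3 and -1.07% at day 15 in T47D, and by -1.77% at day 3 and 0.246% at day 15 in MDA-MB-231. The MDA-MB-231 day 3 libraries (3895 to 3914 CPM) lay below every control library (3932 to 4009 CPM), and the day 15 libraries (3952 to 4010 CPM) overlapped the controls. As a share of reads, however, the MDA-MB-231 day 3 libraries (0.38972 to 0.39239%) overlapped the controls (0.39199 to 0.40147%), so that separation depends on the scaling of the libraries. The sums were given no test, since the family was taken up with results of these data known, although its members follow from their symbols alone.

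**Figure D1:**
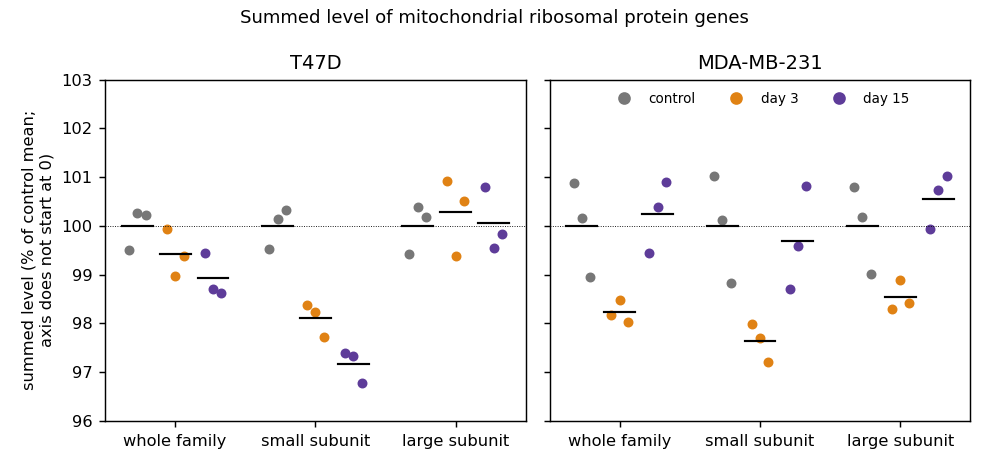
Summed level of the whole family, the small subunit and the large subunit in each library of T47D (left) and MDA-MB-231 (right), as a percentage of the mean of the 3 control libraries of the line, at control, day 3 and day 15; points are libraries, horizontal lines are group means, and the axis does not start at 0. The T47D small subunit means lie 1.89% below control at day 3 and 2.83% below at day 15, with no overlap with the control libraries, while the T47D large subunit libraries of the 3 groups overlap.

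In T47D the 25 small subunit genes summed to 2193 to 2211 CPM in controls, 2154 to 2168 at day 3 and 2133 to 2146 at day 15, and the groups did not overlap. The large subunit genes summed to 3418 to 3450 CPM in controls, 3416 to 3469 at day 3 and 3422 to 3464 at day 15, and the groups overlapped. The small subunit mean differed from control by -41.6 CPM (-1.89%) at day 3 and by -62.3 CPM (-2.83%) at day 15. The subunit sums of either line are in the deposited CPM and were not taken as a share of reads. Differences and gaps of this size may depend on the scaling of the libraries. Replication-dependent histone transcripts, a sign of RNA selection or quality, summed to 387 to 394 CPM in T47D controls, 428 to 437 at day 3 (2 of 29 called, both higher) and 427 to 439 at day 15 (4 of 29 called, all higher). Of all T47D genes, 1.88% were called at day 3 and 11.2% at day 15. The part of the histones in the small subunit sums was not tested.

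Much of the small subunit difference lay in a few abundant genes, picked out after their values were seen. At day 15 MRPS16 differed by -21.1 CPM, MRPS25 by -13.7 CPM and MRPS27 by -9.18 CPM. The other 22 small subunit genes together summed to 1563 to 1577 CPM in controls, 1557 to 1563 at day 3 and 1536 to 1562 at day 15. In MDA-MB-231 the small subunit summed to 1409 to 1441 CPM in controls, 1386 to 1397 at day 3 and 1407 to 1438 at day 15, and the day 3 libraries alone lay wholly below the controls. The MDA-MB-231 large subunit summed to 2490 to 2535 CPM in controls, 2472 to 2486 at day 3 and 2513 to 2540 at day 15, again with the day 3 libraries below the controls.

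In control cells most members were more abundant in T47D. The tables of the lines may have been normalised separately, so these levels are a description with no test. Of 76 shared members, 55 had all T47D control libraries above all MDA-MB-231 control libraries, 17 had them all below, and MRPS12, MRPL4, MRPS36 and MRPL27 overlapped. These were 72.4% of the members above and 22.4% below, while 49.5% of all shared genes lay wholly above and 40.5% wholly below. The median ratio of T47D over MDA-MB-231 was 1.47, beside 1.09 over all shared genes. The ratio was over 2 for 15 members and under 0.5 for 5, while 20.6% of all shared genes were over 2 and 16.1% under 0.5. MRPS25, a mitochondria-specific small subunit protein, had the highest ratio at 3.55, with 133 ± 3.89 CPM in T47D and 37.5 ± 0.904 CPM in MDA-MB-231 (SD, n = 3 each). MRPS21 followed at 3.49, MRPL49 at 3.00 and MRPL22 at 2.76. MRPL52 had the lowest ratio at 0.342, with 10.2 ± 0.804 CPM in T47D and 29.7 ± 1.66 CPM in MDA-MB-231. MRPL50, MRPL51, MRPL14 and MRPL33 were the other members under 0.5. All of them are large subunit proteins.

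**Figure D2:**
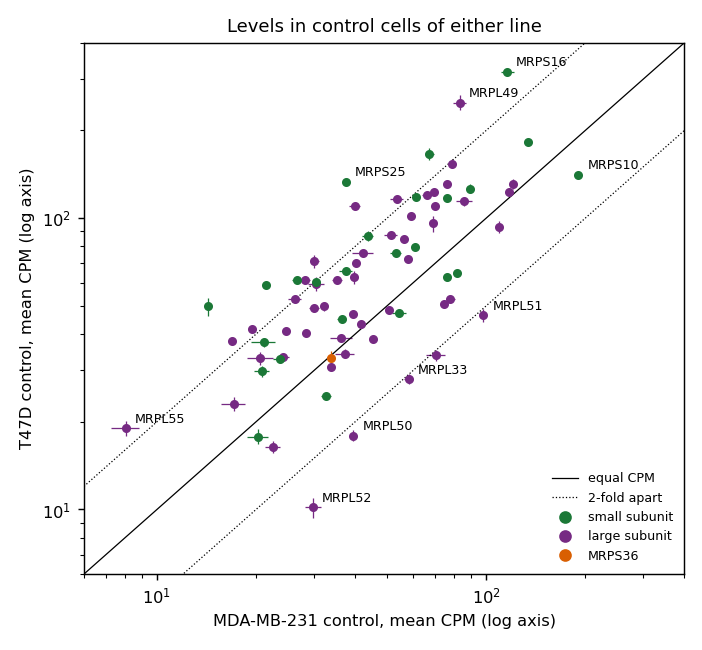
Control levels of the 76 shared members, mean CPM in T47D against mean CPM in MDA-MB-231 on log axes, with error bars of 1 SD over 3 libraries, the line of equal level and dotted lines at 2-fold; green points are small subunit genes, purple points large subunit genes and the orange point MRPS36. MRPS25 at a ratio of 3.55 and MRPL52 at 0.342 lie farthest from the line of equal level on either side.

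Per kilobase of exon, which allows levels of different genes to be compared, the most abundant members in T47D controls were MRPS16 at 121, MRPL49 at 114 and MRPL47 at 112 CPM per kb. In MDA-MB-231 controls they were MRPL33 at 112, MRPS10 at 90.2 and MRPS15 at 80.8 CPM per kb. MRPL42 (5.83) and MRPL50 (5.38) were lowest in T47D, and MRPL42 (6.83), MRPL55 (5.06) and MRPL23 (1.29) in MDA-MB-231, all in CPM per kb. MRPL42 ranked 6 of 77 in MDA-MB-231 and 22 of 76 in T47D by CPM alone, and its low value per kb is over 16006 exon bases of its protein-coding transcripts. The transcripts of a single complex therefore spanned more than an order of magnitude in each line. The order is that of the deposited gene counts over all exon bases of annotated protein-coding transcripts. Named pseudogenes, 75 in all, exist for 34 members, and reads could be shared with them.

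Induction for 3 days in T47D left no member past the threshold of an adjusted p under 0.05 (limma, Benjamini-Hochberg over all genes), 0 of 76, while 1.88% of all T47D genes were called. At an unadjusted p under 0.05, limma found 2 members higher and 2 lower (10.1% of all genes in either direction), and limma with voom weights on recovered reads also called 0. The log2 fold changes ranged from -0.09 to 0.11 with a median of 0.00. For 75 of 76 members the 95% interval of the log2 fold change lay within 0.3 of zero. Day 3 libraries lay wholly above the controls for 8 members (10.5%, against 10% of all genes) and wholly below for 11 (14.5%, against 11.9%). MRPS16, the mitochondrial homologue of bacterial S16, had 304, 301 and 291 CPM at day 3, against 316, 321 and 317 CPM in controls. All day 3 libraries lay below all controls, with a log2 fold change of -0.09 and an adjusted p of 0.408 by limma. Without T47D day 15 replicate 2, which also enters the estimate of the spread, the adjusted p of MRPS16 was 0.0179 by limma. It was the single member called in that fit, while 5.05% of all genes were called. MRPS27, a mitochondria-specific protein of the small subunit, had a log2 fold change of -0.07 with an adjusted p of 0.359 by limma. The largest positive value was that of MRPL27, 0.11 with an adjusted p of 0.332.

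After 15 days in T47D, 3 of 76 members were lower and none higher than in controls, 3.95% of the members, while 11.2% of all T47D genes were called, 5% higher and 6.23% lower. Day 15 libraries lay wholly above the controls for 3 members (3.95%, against 12.9% of all genes) and wholly below for 11 (14.5%, against 13.4%). The members that fell were MRPS25, MRPL15 and MRPL30. MRPS25 is in the mitochondria-specific part of the small subunit, and MRPL15 and MRPL30 are large subunit proteins with bacterial homologues. The median log2 fold change of the members was -0.01, and 47 of 76 were below zero, 61.8% against 48.9% of all genes. Folds ranged from -0.17 to 0.14, and for 75 of 76 members the 95% interval lay within 0.3 of zero, the exception being MRPL41. The largest positive values were those of the large subunit genes MRPL28, 0.14 with an adjusted p of 0.182, and MRPL2, 0.11 with an adjusted p of 0.0921, and neither passed the threshold.

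MRPS25 (ENSG00000131368.7, chr3:15042460-15065335 on GRCh38, minus strand) had 129, 135 and 137 CPM in T47D controls, 130.3, 129 and 132 CPM at day 3 and 122, 118 and 119 CPM at day 15. All day 15 libraries lay below every day 3 and control library. The log2 fold change at day 15 against control was -0.16 (SE 0.034, adjusted p = 0.00834 by limma), a change of -10.2%. MRPS25 was also the single member of 76 called between day 15 and day 3 in T47D, with a log2 fold change of -0.12 and an adjusted p of 0.0499, while 5.58% of all genes were called, 2.23% higher and 3.35% lower. Between those time points 4 members lay wholly higher at day 15 (5.26%, against 10.5% of all genes) and 8 wholly lower (10.5%, against 11.9%). The day 15 fall was called in 5 of 6 fits that left out 1 library, with an adjusted p of 0.052 without control replicate 2, and the day 15 against day 3 call held in 1 of 6. NR2C2, which overlaps the exons of MRPS25 on the other strand, had a log2 fold change of -0.11 with an adjusted p of 0.12 at day 15, and of -0.13 with an adjusted p of 0.0201 by limma without day 15 replicate 2. In RNA from bulk cultures, fewer cells with the transcript and less transcript per cell cannot be told apart. Strand use in the counting is not given in the sources used here.

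MRPL15 had 106, 109 and 104 CPM at day 15, against 118, 118 and 112 CPM in T47D controls. The groups did not overlap, and the log2 fold change was -0.12 (SE 0.036, adjusted p = 0.0389 by limma). MRPL30 had 92.9, 93.9 and 95.5 CPM at day 15, against 101, 102 and 101 CPM in controls. Its groups did not overlap either, with a log2 fold change of -0.11 (SE 0.032, adjusted p = 0.0444 by limma). Each of these calls held in 2 of 6 fits that left out 1 library. The number of members called was 1 without control replicate 1 (6.81% of all genes called), 0 without control replicate 2 (6.3%), 1 without day 15 replicate 1 (6.76%) and 6 without day 15 replicate 3 (12.3%).

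Without T47D day 15 replicate 2, 16 of 76 members were called at day 15 against control, 7 higher and 9 lower, 21.1% of the members against 25.1% of all genes. MRPS25, MRPL15 and MRPL30 were among them. The higher members were MRPL24, MRPS18C, MRPL33, MRPL9, MRPS21, MRPL32 and MRPS15, with log2 fold changes of 0.11 to 0.17. Besides those already named, the lower members were MRPL41, MRPS12, MRPS26, MRPS16, MRPL38 and MRPS18B. MRPL41, a mitochondria-specific large subunit protein, had 28.5, 36.2 and 24.4 CPM at day 15, against 31.2, 33.4 and 34.6 CPM in controls. With all libraries its log2 fold change was -0.17 (adjusted p = 0.412), and without replicate 2 it was -0.32 (adjusted p = 9.98e-05, limma). MRPS12, the homologue of the bacterial decoding-centre protein S12, had 15.7, 22.02 and 15.2 CPM at day 15, against 17.9, 16.7 and 18.8 CPM in controls. In both genes replicate 2 lay above every control library and the other day 15 libraries lay below every control library. Between day 15 and day 3, 10 members were called without replicate 2 (13.2%, against 17.6% of all genes), 3 higher and 7 lower. With all libraries, the lowest values between day 15 and day 3 were those of MRPS5 (-0.16, adjusted p = 0.141) and MRPS33 (-0.13, adjusted p = 0.0879), small subunit genes that did not pass limma's threshold.

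Besides the histone transcripts given above, other fixed markers moved in T47D at day 15. The T47D identity genes summed to 9036 to 9498 CPM at day 15, against 9315 to 9560 CPM in controls, with 2 of 10 higher and 4 lower. Of all T47D genes, 5% were called higher and 6.23% lower. Fibroblast markers summed to 24.9 to 27.4 CPM, against 34.7 to 40.2 CPM in controls. Their part in the member results was not tested.

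**Figure D3:**
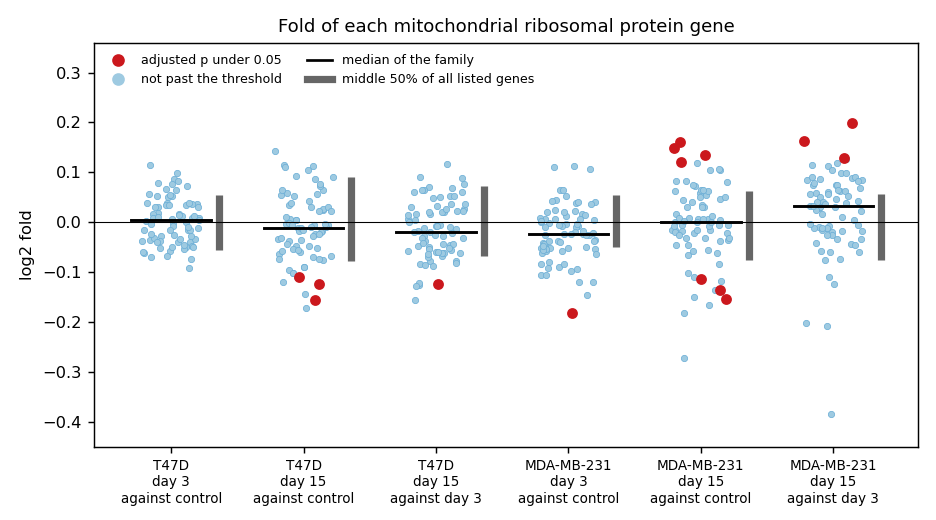
Log2 fold change of every member in the 6 comparisons within a line; each point is a member, large red points passed an adjusted p under 0.05 (limma), the black line is the family median and the grey bar the middle 50% of all listed genes. All points lie between -0.38 and 0.20, with 0, 3 and 1 members called in the T47D comparisons and 1, 7 and 3 in the MDA-MB-231 comparisons, from left to right.

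In MDA-MB-231 at day 3 MRPS6 fell, and it was the single member of 77 called, while 1.77% of all MDA-MB-231 genes were called, 0.895% higher and 0.874% lower. Most values of the family were negative: 51 of 77 log2 fold changes were below zero, 66.2% against 49.0% of all genes, with a median of -0.02 beside 0.00. Day 3 libraries lay wholly below the controls for 12 members (15.6%, against 10.1% of all genes) and wholly above for 1 (1.30%, against 10.3%). At an unadjusted p under 0.05, 10 members were lower and 1 higher, while 13.6% of all genes passed in either direction. The small subunit had 19 of 25 members below zero and the large subunit 32 of 51. For 76 of 77 members the 95% interval lay within 0.3 of zero, the exception being MRPL23. After MRPS6 the lowest value was that of MRPL46, a mitochondria-specific large subunit protein. It had 17.8, 17.5 and 17.3 CPM at day 3, against 19.8, 19.7 and 18.8 CPM in controls. These groups did not overlap, but the log2 fold change of -0.15 had an adjusted p of 0.207 by limma. Replication-dependent histones summed to 105 to 113 CPM at day 3, against 111 to 116 CPM in controls, with 0 of 22 called, and their part in the result was not tested. The count of calls was 2 without control replicate 3, where 1.81% of all genes were called.

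MRPS6 (ENSG00000243927.5, chr21:34073224-34143034, plus strand), the homologue of bacterial S6, had 61.2, 61.1 and 60.2 CPM in MDA-MB-231 controls, 54.9, 52.6 and 53.3 CPM at day 3 and 55.7, 54.7 and 55.6 CPM at day 15. Every induced library lay below every control library. The log2 fold change was -0.18 at day 3 (SE 0.034, adjusted p = 0.00183, a change of -11.9%) and -0.14 at day 15 (adjusted p = 0.0113, limma). The day 3 call held in all 6 fits that left out 1 library. The day 15 call missed the threshold when control replicate 1 (adjusted p = 0.0518) or 2 (adjusted p = 0.0641) was left out.

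In T47D MRPS6 had 79.3, 80.8 and 79.1 CPM in controls, 76.2, 75.6 and 76.5 CPM at day 3 and 73.8, 69.5 and 77.2 CPM at day 15. All induced T47D libraries lay below all controls, but the log2 fold changes of -0.07 at day 3 (adjusted p = 0.655) and -0.12 at day 15 (adjusted p = 0.0781) did not pass limma's threshold. The day 15 value without replicate 2 was -0.08 (adjusted p = 0.111). MRPS6 shares exon sequence on the same strand with SLC5A3, a myo-inositol transporter, so that their reads could be split by the counting. SLC5A3 had a log2 fold change of -0.17 at day 3 (adjusted p = 0.000754) and -0.25 at day 15 (adjusted p = 1.22e-06) in MDA-MB-231. In T47D it had -0.05 at day 3 (adjusted p = 0.789) and -0.25 at day 15 (adjusted p = 0.00215).

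After 15 days in MDA-MB-231, 4 of 77 members were higher and 3 lower than in controls, while 8.2% of all genes were called, 3.42% higher and 4.77% lower. MRPL24, MRPL1 and MRPL33, large subunit proteins with bacterial homologues, and MRPS22, a mitochondria-specific small subunit protein, rose. MRPS6, MRPS2 and MRPL49 fell. The median log2 fold change was 0.00, with 39 of 77 below zero. Day 15 libraries lay wholly above the controls for 10 members (12.99%, against 11.7% of all genes) and wholly below for 5 (6.49%, against 12.6%). For 74 of 77 members the 95% interval lay within 0.3 of zero, the exceptions being MRPL53, MRPL23 and MRPS12. Fixed markers moved in these libraries too. Replication-dependent histones summed to 101 to 111 CPM at day 15, against 111 to 116 CPM in controls, with 0 of 22 called and 20 of 22 below zero. The luminal genes that mark T47D summed to 817 to 848 CPM at day 15, against 908 to 969 CPM in controls, with 3 of 6 lower. The markers of MDA-MB-231 summed to 6595 to 6647 CPM at day 15, against 6307 to 6358 CPM in controls, with 2 of 8 higher. Fibroblast markers summed to 13.8 to 14.4 CPM at day 15, against 15.9 to 17.0 CPM in controls, with 1 of 4 lower. Their part in the member results was not tested.

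MRPL24 (chr1:156737303-156741590, minus strand) had 70.4, 68.8 and 69.1 CPM in controls, 73.4, 73.4 and 78.1 CPM at day 3 and 76.9, 76.6 and 79.3 CPM at day 15. Every induced library lay above every control library. The log2 fold change was 0.16 at day 15 (SE 0.033, adjusted p = 0.00277 by limma) and 0.11 at day 3 (adjusted p = 0.0902). In T47D MRPL24 had 140.0, 124 and 134 CPM at day 15, against 119, 124 and 125 CPM in controls, and replicate 2 overlapped the controls. Its T47D log2 fold change was 0.11 (adjusted p = 0.119) with all libraries and 0.16 (adjusted p = 0.000732, limma) without that replicate.

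MRPL1, the protein of the stalk through which spent tRNA leaves, had 49.97, 50.9 and 50.9 CPM in controls, 50.6, 46.8 and 48.1 CPM at day 3 and 56.2, 53.1 and 57.6 CPM at day 15. The day 15 libraries lay above all others, with log2 fold changes of 0.14 against control (SE 0.038, adjusted p = 0.0276) and 0.20 against day 3 (adjusted p = 0.00368, limma). MRPL33 had 64.8, 60.9 and 68.3 CPM at day 15, against 57.02, 57.4 and 60.3 CPM in controls. The groups did not overlap (log2 fold change 0.15, SE 0.043, adjusted p = 0.0299, limma). It shares exon sequence on the same strand with BABAM2, which had a log2 fold change of 0.06 with an adjusted p of 0.478. MRPS22 had 57.7, 57.03 and 58.6 CPM at day 15, against 55.3, 51.2 and 52.9 CPM in controls, again with no overlap (log2 fold change 0.12, adjusted p = 0.0383, limma).

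Among the members that fell, MRPS2, the homologue of bacterial S2, had 49.7, 49.4 and 47.8 CPM at day 15, against 56.8, 55.2 and 51.5 CPM in controls. The groups did not overlap (log2 fold change -0.15, SE 0.039, adjusted p = 0.0146, limma). MRPL49 (chr11:65122183-65127371, plus strand), a mitochondria-specific large subunit protein, had 76.1, 77.9 and 76.1 CPM at day 15, against 83.9, 86.3 and 78.9 CPM in controls. All its day 15 libraries were lower, with a log2 fold change of -0.11 (SE 0.035, adjusted p = 0.0401, limma). MRPL24 was called in all 6 fits that left out 1 library, MRPS2 in 3, and MRPL1, MRPL33, MRPS22 and MRPL49 in 2 each. The number of members called was 2 without control replicate 1 (3.29% of all genes called), 1 without control replicate 2 (3.19%) and 12 without control replicate 3 (12.4%). It was 3 without day 15 replicate 1 (4.88%), 12 without day 15 replicate 2 (13.3%) and 2 without day 15 replicate 3 (5.04%).

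Between the induced time points in MDA-MB-231, 3 of 77 members were higher at day 15 than at day 3 and none lower, while 5.33% of all genes were called, 2.47% higher and 2.86% lower. The members that rose were MRPL1, described above, MRPL48 and MRPS9. The median log2 fold change was 0.03 beside -0.01 over all genes, and 48 of 77 were above zero. Day 15 libraries lay wholly above the day 3 libraries for 16 members (20.8%, against 12% of all genes) and wholly below for 6 (7.79%, against 13%). MRPL48 had 47.9, 48.4 and 47.4 CPM at day 15, against 42.8, 44.8 and 43.9 CPM at day 3. The groups did not overlap (log2 fold change 0.13, SE 0.036, adjusted p = 0.0344, limma). MRPS9 had 38.9, 38.1 and 41.6 CPM at day 15, against 33.04, 35.6 and 37.5 CPM at day 3, with a log2 fold change of 0.16 and an adjusted p of 0.0453 by limma. These groups did not overlap either. MRPL55, among the least abundant members, had a log2 fold change of -0.21 with an adjusted p of 0.138. The count of calls was 1 without day 15 replicate 1 (2.15% of all genes called), 9 without day 15 replicate 2 (11.6%) and 1 without day 15 replicate 3 (2.23%). It was 1 without day 3 replicate 1 (0.867%) and 0 without day 3 replicate 2 (0.999%).

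MRPL23, the least abundant member, had 2.12, 2.15 and 2.15 CPM in MDA-MB-231 controls, 1.95, 2.72 and 2.34 CPM at day 3 and 1.62, 1.85 and 1.87 CPM at day 15. Its log2 fold changes at day 15 were -0.27 against control (adjusted p = 0.259) and -0.38 against day 3 (adjusted p = 0.122, limma), the lowest of any member in those comparisons, and it rested on as few as 64 reads in a library. All its day 15 libraries lay below all controls, and no comparison of MRPL23 passed the threshold.

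**Figure D4:**
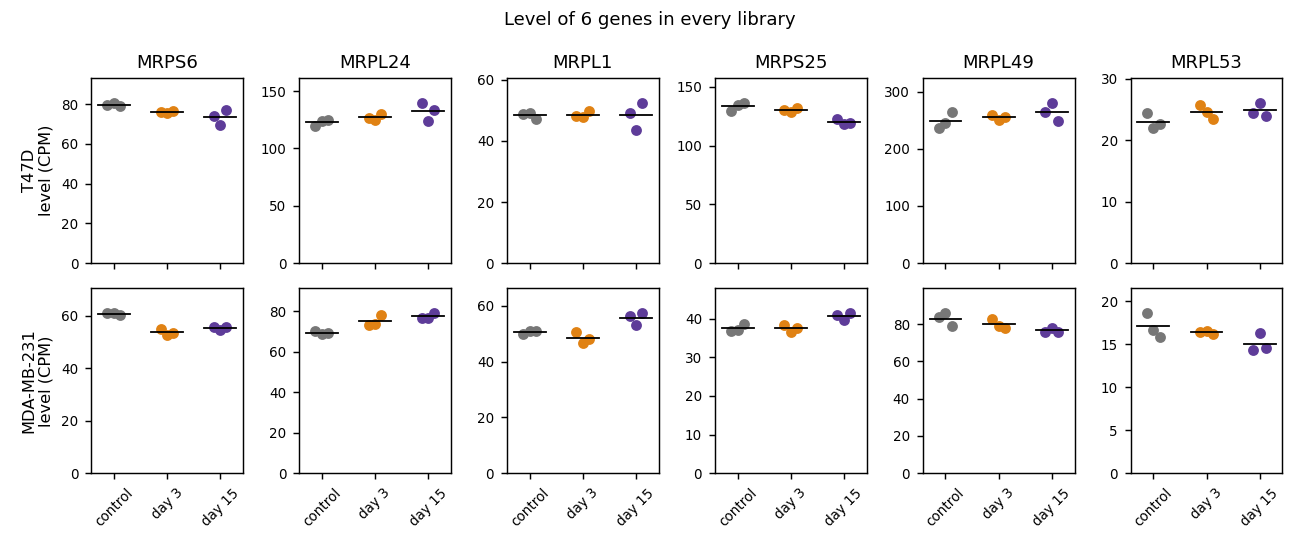
Level in CPM of 6 members in each library of T47D (upper row) and MDA-MB-231 (lower row), at control, day 3 and day 15; points are libraries and horizontal lines are group means. MRPS25 in T47D stands at 122, 118 and 119 CPM at day 15, below every other T47D library, and MRPS6 in MDA-MB-231 stands at 52.6 to 55.7 CPM in the induced libraries, below the controls at 60.2 to 61.2 CPM.

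The lines differed in their response for few members. The difference of responses, T47D minus MDA-MB-231, was tested in 1 limma fit of all 18 libraries over the 12666 shared genes. At day 3, 0 of 76 members differed, while 2.46% of shared genes did. At an unadjusted p under 0.05, 2 were higher and 1 lower (11.7% of shared genes passed in either direction), and voom weights also gave 0. At day 15, 3 of 76 members differed, 2 higher and 1 lower, while 9.44% of shared genes did, 4.07% higher and 5.37% lower.

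MRPS25 had a day 15 response of -0.16 in T47D and 0.12 in MDA-MB-231 on the log2 scale. In MDA-MB-231 it had 40.98, 39.7 and 41.6 CPM at day 15, against 36.96, 37.1 and 38.6 CPM in controls. There the day 15 libraries all lay above the controls, although the MDA-MB-231 change alone missed the threshold (adjusted p = 0.0592, limma). The difference of responses was -0.28 (SE 0.046, 95% interval -0.37 to -0.18, adjusted p = 0.000388, limma), and it was called in all 12 fits that left out 1 library. It was -0.27 (adjusted p = 0.000382) without T47D day 15 replicate 2.

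MRPL49 had 264, 281 and 249 CPM at day 15, against 237, 246 and 265 CPM in T47D controls, and these groups overlapped. Its response was 0.09 in T47D (adjusted p = 0.282) and -0.11 in MDA-MB-231 (adjusted p = 0.0401), a difference of 0.20 (SE 0.062, 95% interval 0.07 to 0.33, adjusted p = 0.0427, limma). MRPL53 (chr2:74471958-74473322, minus strand), a mitochondria-specific large subunit protein, had 24.4, 26.1 and 23.99 CPM at day 15, against 24.4, 21.9 and 22.6 CPM in T47D controls. In MDA-MB-231 it had 14.3, 16.4 and 14.5 CPM at day 15, against 18.7, 16.7 and 15.9 CPM in controls. Its groups overlapped in both lines, and the difference of responses was 0.29 (SE 0.093, 95% interval 0.10 to 0.49, adjusted p = 0.0492, limma). Without T47D day 15 replicate 2 neither was called (adjusted p of 0.0621 for MRPL49 and 0.0738 for MRPL53), and MRPL15 (-0.17) and MRPS16 (-0.14) were called in addition to MRPS25. The number of members called was 1 without MDA-MB-231 control replicate 1 (6.79% of shared genes called), MDA-MB-231 day 15 replicate 3 (8.35%), T47D control replicate 2 (7.04%) or T47D day 15 replicate 1 (7.5%). It was 7 without T47D day 15 replicate 3, where 15% of shared genes were called.

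A fixed panel of named members held none that was called in either line at day 3 or day 15 against control in the main limma fit with all libraries. It comprised MRPS12 and MRPS7 of the small subunit, MRPS18A, MRPS18B and MRPS18C, which share the S18 name, the stalk proteins MRPL10, MRPL11 and MRPL12, the peptidyl-tRNA hydrolase MRPL58, MRPS30 and MRPS36. Their log2 fold changes lay between -0.05 and 0.08 at day 3 and between -0.07 and 0.10 at day 15 in T47D. In MDA-MB-231 they lay between -0.11 and 0.02 at day 3 and between -0.15 and 0.11 at day 15. MRPL12, the acidic stalk protein, came nearest with -0.12 at day 15 in MDA-MB-231 (adjusted p = 0.0513, limma). In the alternative fit of genes with a mean CPM of at least 1, MRPL12 was called there (adjusted p = 0.0497, limma). MRPS36, which is not a ribosomal protein in current annotation, stayed between -0.02 and 0.01 in those comparisons. Without T47D day 15 replicate 2, MRPS18C was higher and MRPS12 and MRPS18B lower at day 15 in T47D, as given above.

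The mitochondrial ribosomal RNAs were measured as RNR1 and RNR2. RNR1, the small subunit RNA, had 1005, 1026 and 916 CPM in T47D controls, 834, 701 and 751 CPM at day 3 and 693, 1093 and 986 CPM at day 15. The T47D day 3 libraries lay below all controls, with a log2 fold change of -0.37 (adjusted p = 0.478, limma). In MDA-MB-231 RNR1 had 605, 710.4 and 738 CPM in controls, 786, 638 and 522 CPM at day 3 and 441, 609.9 and 545 CPM at day 15. The groups overlapped, with log2 fold changes of -0.09 at day 3 (adjusted p = 0.895) and -0.37 at day 15 (adjusted p = 0.3, limma). RNR2, the large subunit RNA, had 3797, 3878 and 3602 CPM in T47D controls, 3307, 3236 and 3316 CPM at day 3 and 3323, 2928 and 3681 CPM at day 15. The T47D day 3 libraries lay below all controls, with a log2 fold change of -0.19 (adjusted p = 0.277, limma). In MDA-MB-231 it had 3163, 3301 and 3519 CPM in controls, 3692, 3554 and 3635 CPM at day 3 and 3386, 3305 and 3780.3 CPM at day 15. There the day 3 libraries lay above all controls, with a log2 fold change of 0.13 (adjusted p = 0.442). The difference of the day 3 responses was -0.32 (adjusted p = 0.0801, limma). Neither rRNA was called in any comparison. Whether ribosomal RNA was depleted or poly(A) RNA selected is not given in the sources used here.

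Other parts of the mitochondrial translation machinery had calls in single genes with all libraries. Of all genes, 1.88% were called in T47D at day 3 and 11.2% at day 15, and 1.77% and 8.2% in MDA-MB-231. Of 5 mitoribosomal proteins under other symbols, DAP3, a GTP-binding small subunit protein, rose in T47D at day 15 (log2 fold change 0.10, adjusted p = 0.046). AURKAIP1 fell in MDA-MB-231 at day 15 (-0.13, adjusted p = 0.0347, limma). Of 27 assembly and rRNA modification factors, MALSU1, an assembly factor of the large subunit, fell in T47D at day 15 (-0.25, adjusted p = 0.0116). Among translation factors, LRPPRC, which stabilises mitochondrial mRNAs, fell in T47D at day 15 (-0.16, adjusted p = 0.00486), the single call of 20. The median log2 fold change of those 20 was -0.08, with 18 below zero, while 48.9% of all genes were below zero. In the same comparison, 20 of 27 assembly factors (median -0.03) and 16 of 20 mitochondrial aminoacyl-tRNA synthetases (median -0.06) were below zero. Of the mitoribosomal proteins under other symbols, 2 of 5 were. In MDA-MB-231, LETM1, an inner membrane protein that interacts with mitoribosomes, fell at day 3 (-0.14, adjusted p = 0.00767) and day 15 (-0.16, adjusted p = 0.00104, limma). None of 20 mitochondrial aminoacyl-tRNA synthetases was called against control in either line with all libraries. In the fit that left out T47D day 15 replicate 2, 5 of 27 assembly factors, 4 of 20 translation factors and 5 of 20 synthetases were lower in T47D at day 15 and none higher, while 25.1% of all genes were called. DAP3, MALSU1 and LRPPRC kept their direction and their calls there.

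Of 23 genes of mitochondrial transcription and RNA processing, PNPT1, an RNA-degrading phosphorylase, rose in T47D at day 3 (0.48, adjusted p = 2.7e-05), and TEFM fell at day 15 (-0.18). In MDA-MB-231 at day 15, TBRG4 fell (-0.21, adjusted p = 0.0239) and SSBP1, a mitochondrial single-stranded DNA binding protein, rose (0.11, adjusted p = 0.0123, limma). Of 15 mitochondrial chaperones and proteases, LONP1 (-0.21), AFG3L2 (-0.17) and CLPX (-0.14) fell in T47D at day 15 by limma, and HSPD1 rose in MDA-MB-231 (0.09). Of 10 nuclear regulators, PPARGC1A, the coactivator PGC-1α, had 32.3, 33.3 and 30.6 CPM in T47D controls, 29.7, 30.4 and 31.2 CPM at day 3 and 21.6, 20.96 and 24.3 CPM at day 15. Its day 15 libraries lay below all others, with a log2 fold change of -0.53 (SE 0.059, adjusted p = 4.08e-05) and a difference from the MDA-MB-231 response of -0.59 (adjusted p = 3.43e-05, limma). GABPB2, a beta subunit gene of GABP, rose in MDA-MB-231 at day 15 (0.23, adjusted p = 0.00658, limma). NRF1, GABPA and YY1, whose letters were searched in the promoters, were not called. Of 77 nuclear-encoded respiratory chain genes, 1 rose and 12 fell in T47D at day 15 with a median of -0.08, while 11.2% of all genes were called, and 0 rose and 1 fell in MDA-MB-231, while 8.2% of all genes were called. Leaving out T47D day 15 replicate 2, 6 of these respiratory chain genes rose and 33 fell in T47D with a median of -0.07, beside 25.1% of all genes called, and PPARGC1A had -0.48 (adjusted p = 4.53e-08). TEFM, LONP1, AFG3L2 and CLPX were also lower and called without that library, with log2 fold changes of -0.19, -0.25, -0.17 and -0.11.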

How the data were processed

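Total RNA of 18 libraries was sequenced on an Illumina HiSeq, per the labels' protocols. Per the submitters' processing notes, STAR, featureCounts and limma were used with GRCh38.p13; the sources used here give no versions, normalisation or strand setting. The authors deposited log2 CPM per gene in 1 table per line. The values were whole reads plus 3 reads scaled to the library (all whole within 0.1 read), and CPM in the text is 2 raised to the deposited log2 value. Because the values are log2 CPM and not counts, limma 3.58.1 (trend and robust settings, statmod 1.5.0, R 4.3.3) was fitted to all genes of a line, and to the shared genes for the difference between lines, with Benjamini-Hochberg adjustment and a threshold of 0.05. The fit was tested on simulated data. Named members were those called, the 2 of largest rise and 2 of largest fall in each comparison, the 3 highest and 3 lowest in level per line, and a fixed panel. Members follow from the symbol rule alone, while the family and the lists were chosen with earlier results of these data known. Positions, exon lengths and exon overlaps used GENCODE 29 on GRCh38, and roles came from a fixed list. By these overlaps, 40 members share exon positions with another gene, 15 on the same strand and 29 on the other. Alternatives were voom weights on recovered reads, no trend or robust setting, a mean CPM of at least 1, log2(CPM + 1), median centring, a replicate block and leaving out each library. Depth was 37.0 to 52.4 M reads per library, and intervals cover the spread between libraries. Python 3.11.15 and pandas 2.3.3 were used.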

Additional observations from a re-analysis of the deposited data

Results flagged for a closer look

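The responses of 3 members at day 15 differed between the lines in the test of the difference itself, T47D minus MDA-MB-231 (limma, adjusted p under 0.05). These were 3.95% of the shared members, while 9.44% of all shared genes differed. MRPS25 differed by -0.28 on the log2 scale, lower in T47D in 3 of 3 libraries against all controls and higher in MDA-MB-231 in 3 of 3. MRPL49 differed by 0.20, with overlapping groups in T47D and all day 15 libraries lower in MDA-MB-231. MRPL53 differed by 0.29, with overlapping groups in both lines. MRPS25 was called in all 12 fits without 1 library, MRPL53 in 4 and MRPL49 in 3. Without T47D day 15 replicate 2, limma called neither MRPL49 (adjusted p = 0.0621) nor MRPL53 (adjusted p = 0.0738).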

How the results depend on the processing

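With a replicate block, the number of members called was 5 in MDA-MB-231 at day 3 against control (4.45% of all genes called), 14 at day 15 against control (15.9%) and 11 at day 15 against day 3 (12.5%), and in T47D it was 1 at day 15 against control (8.14%) and 0 at day 15 against day 3 (3.46%). Same-numbered libraries correlated by -0.03 to 0.28 in MDA-MB-231 and -0.41 to 0.07 in T47D, with 4 of 9 such pairs over 0.1 in MDA-MB-231 and 0 of 9 in T47D. Since not every pair was over 0.1, the numbers were not taken to pair the libraries. Set against the libraries of another group, a library correlated best with its own number in 11 of 18 cases in MDA-MB-231 and 3 of 18 in T47D. Without trend and robust settings the counts were 1 and 0 for MDA-MB-231 day 15 against control and against day 3 (1.62% and 0.224% of all genes called). For the same T47D comparisons they were 1 and 0 (8.23% and 3.72%). Median centring gave 7 members for MDA-MB-231 day 15 against day 3 (5.77% of all genes) and 0 for T47D (4.76%). Using log2(CPM + 1) or voom weights gave 0 for T47D day 15 against day 3 (5.65% and 5.52% of all genes). Voom weights gave 1 for the difference of day 15 responses (9.08% of shared genes). Libraries of the compared groups were also left out 1 at a time, and counts are given beside the share of all genes called. T47D day 15 against control gave 0 to 16 (6.3 to 25.1%), and T47D day 15 against day 3 gave 0 to 10 (2.73 to 17.6%). MDA-MB-231 gave 1 to 2 at day 3 (0.832 to 1.81%) and 1 to 12 at day 15 against control (3.19 to 13.3%). MDA-MB-231 day 15 against day 3 gave 0 to 9 (0.867 to 11.6%). The difference of day 15 responses gave 1 to 7 (6.79 to 15% of shared genes). T47D day 3 gave 0 (1.23 to 1.45%), as did the difference of day 3 responses (1.83 to 2.48% of shared genes). The cause was not tested. No member's fold change that was called in the main limma fit with all libraries changed direction under an alternative. MRPS6 at day 3 in MDA-MB-231 and MRPS25 in the difference of day 15 responses were called under all 6 alternatives that kept every library.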

Other observations

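ATF4 is the transcription factor of the mitochondrial and amino acid stress response, and 14 genes, ATF4 itself and known targets, were read as a list. In T47D at day 15, 0 were higher and 7 lower than in controls, with a median log2 fold change of -0.21 beside 11.2% of all genes called (limma, adjusted p under 0.05). Among them, PSAT1, an enzyme of serine synthesis, had -0.53 (adjusted p = 0.00628), DDIT3, which encodes CHOP, -0.47 (adjusted p = 0.000205) and DDIT4 -0.40 (adjusted p = 0.00332). When replicate 2 of that group was left out, 11 of the 14 were lower, while 25.1% of all genes were called in either direction. In MDA-MB-231 at day 15, 1 was higher and 1 lower, while 8.2% of all genes were called. The difference of the day 15 responses, T47D minus MDA-MB-231, was called lower for 5 of 14, while 9.44% of shared genes were called, 5.37% lower.

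Of the cytosolic ribosomal proteins, 1 of 81 was higher and 7 lower in T47D at day 15 against control, while 11.2% of all genes were called, and without day 15 replicate 2 these counts were 13 and 23, while 25.1% of all genes were called. In MDA-MB-231 at day 15, 18 of 82 were higher and 0 lower against control, while 8.2% of all genes were called. The median log2 fold change there was 0.03.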
